A study of Bos taurus with 4 samples.

Results

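DEAD and DEAH box proteins are ATP-driven enzymes that unwind RNA or strip proteins from it, and they are named for the amino acids of a conserved motif. They act in nearly every step of an RNA's life, from splicing and export to translation, storage and decay, and in the assembly of ribosomes. In early embryos, which first live on RNA stored in the oocyte and then start their own transcription, several of them handle stored messages or the new splicing and ribosome load.

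The family was taken as all array probes whose platform symbol begins with DDX or DHX and a digit, apart from DDX3Y, the Y-linked copy of DDX3X. This gave 61 of 43794 probes and 45 of 15216 named genes. Members were chosen by symbol alone, but the family was picked out with ratios of the same age contrast already in view, so the ratios below are a description and the calls are not independent support. The platform symbol DDX39 is an older name of DDX39A. Helicases with other symbols, such as EIF4A1, are given separately.

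The embryos were early blastocysts of Holstein cattle, collected 168 h after fertilization in vitro and pooled before RNA was extracted. One group came from oocytes of heifers at 8 months of age and the other from the same heifers at 14 months. Every donor had progesterone and FSH before ovum pickup, and 1 bull sired all embryos. Each of 4 heifers (n = 4) gave 1 array, on which her 8-month pool was hybridised against her 14-month pool. The 8-month pool was in Cy5 in heifers 1 and 2 and in Cy3 in heifers 3 and 4. The 8-month collection came first in every donor, so age and the order of collection cannot be told apart. In pooled embryos, less RNA per cell cannot be told apart from fewer cells that hold it.

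Of all probes, 26.9% to 41% were above background in the Cy5 samples and 43.3% to 51.1% in the Cy3 samples. The 14-month sample of heifer 4, in Cy5, was the lowest. Blastocyst genes were present: KRT8, KRT18, GATA2, GATA3, TEAD4, POU5F1 and NANOG were above background in all 8 samples. SOX2 was above it in 4 samples at 8 months and 3 at 14 months, and CDX2 in 3 and 2. Of 6 cumulus and granulosa markers, HAS2, PTX3 and FSHR were not detected. Of the 3 detected, 0 passed between the ages (2 at an unadjusted p under 0.05, limma). SERPINE2 and HSD3B1 were above background in all 8 samples, and CYP19A1 in 2 at 8 months and 4 at 14 months. Of 6 trophectoderm markers, 2 passed, GATA2 and TEAD4, both higher at 8 months (limma, 3 at an unadjusted p under 0.05). Over all genes, 1.7% were called higher at 8 months. The log2 ratio of 8 over 14 months was above 0 for 4 of the 6 markers. It was below 0 for KRT8 (-0.30 ± 0.11) and GATA3 (-0.08 ± 0.10), which did not pass. None of 3 inner cell mass markers and 2 blood markers passed (limma, 0 and 1 at an unadjusted p under 0.05). The blood marker PTPRC was above background in all 8 samples and CD3E in 3 at each age. Whether the make-up of the pools had a part in the helicase values was not tested.

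A probe was compared if it cleared the background in 3 or 4 of an age's samples, which kept 50 helicase probes and 40 helicase genes (28 DDX and 12 DHX), among 17685 probes and 8398 genes in all. Where a gene had several detected probes, the one of highest mean intensity stood for it. Of the 40 genes, 33 were above background in all 8 samples. Genes just inside this limit were DHX30, above background in 1 sample at 8 months and 3 at 14 months, and DDX21, with 2 and 3. Both were kept through their 14-month samples alone, which favours a ratio below 0, and both count among the genes below 0. Genes just outside the limit were DDX54, with 1 and 2, and DDX25, with 0 and 2. DHX33, DHX34 and DHX35 were the other genes left out. They had 3, 1 and 1 probes, with at most 1 sample above background at either age. DDX25 is an export helicase of male germ cells in mice.

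Ratios are log2 of 8 over 14 months after loess normalization within each array, with the standard error of a limma fit that holds an age and a dye term. That error leaves out the difference between the heifers of one dye orientation and those of the other. Of the 40 helicase genes, 29 had a fitted ratio below 0 and 11 above 0, and their median was -0.11. Over all 8398 genes the median was 0.00 (4254 below 0 and 4144 above). The 40 ratios ran from -0.61 to 0.38, and their median size was 0.18, against 0.16 over all genes. Fitted errors ran from 0.10 to 0.20.

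At an adjusted p under 0.05 over all genes, 2 of the 40 helicase genes were called, DHX9 and DHX8, both lower at 8 months. The same rule called 4.5% of all genes, 2.8% lower and 1.7% higher at 8 months. No helicase gene was called higher (limma, 1 at an unadjusted p under 0.05). That unadjusted limit was passed by 14 helicase genes, 35% of the 40, and by 27.3% of all genes. At the level of probes 2 of 50 helicase probes were called, 1 each of DHX9 and DDX46, where the share over all probes was 1.88%. Both gene calls were lost without heifer 1, 2 or 3 (0 helicase genes each by limma, with 7, 9 and 10 at an unadjusted p under 0.05) and kept without heifer 4 (2 genes). Over all genes, 0, 0 and 2 were called without heifers 1, 2 and 3, and 4.04% without heifer 4. The mean of a spot's pixels instead of their median, a fit without the dye term and one without moderation of the variances also gave 0, and 0 over all genes (14, 6 and 5 helicase genes at an unadjusted p under 0.05). Median centring without loess called 14 helicase genes, all lower, and 24.7% of all genes, 2039 lower and 39 higher.

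The sign was the same in all 4 heifers for 10 of the 40 helicase genes, 9 below 0 and 1 above. Over all genes this share was 27.6%. The DHX genes had a median of -0.29, with 11 of 12 below 0, and the DDX genes a median of -0.04, with 18 of 28 below 0. This division by name was made after the values were seen, and the difference was not tested. The 11 DHX genes below 0 include DHX40, whose other 3 detected probes were above 0, and DHX30, kept through its 14-month samples alone.

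**Figure D1:**
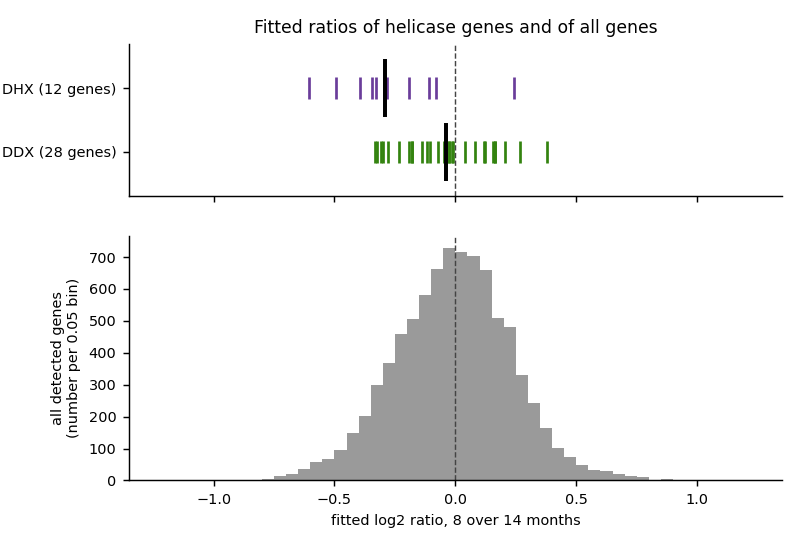
Fitted log2 ratios (8 over 14 months, x axis) of the 12 DHX and 28 DDX genes, 1 tick per gene with the group median as a heavy bar, above the number of all 8398 detected genes per bin of the same ratio. Of the DHX genes, 11 lie left of 0, with a median of -0.29; the DDX genes spread on both sides, with a median of -0.04.

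DHX9, also known as RNA helicase A, unwinds structured RNA and links transcription factors to RNA polymerase. Its probe (EMBV3_34275) had normalized signals of 6020, 5168, 5213 and 3156 at 8 months in heifers 1 to 4, against 9999, 7703, 8198 and 4345 at 14 months. In each heifer the 8-month pool was the lower one, while across heifers the ranges overlapped. The ratios were -0.73, -0.58, -0.65 and -0.46, with a fitted value of -0.61 ± 0.10, or 1.52-fold lower at 8 months. DHX9 lay nearest to the lower end of all genes among the helicases, at percentile 0.857. The other nuclear coregulators showed no such agreement between heifers. DDX5 and DDX17 are close relatives that act with transcription factors and in splicing. DDX5 (EMBV3_20125) had ratios of 0.11, -0.12, -0.60 and -0.50, near 0 in heifers 1 and 2 and negative in heifers 3 and 4, with a fitted value of -0.28 ± 0.10. DDX17 (EMBV3_10504) had 0.47, 0.11, -0.41 and -0.02, with a fitted value of 0.04 ± 0.12. DDX20, or gemin3, belongs to the SMN complex that assembles spliceosomal snRNPs. It had 0.09, -0.39, -0.40 and -0.02, with a fitted value of -0.18 ± 0.12, so that 1 heifer of each dye orientation was near 0.

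Splicing helicases drive the rearrangements of the spliceosome, and their order of action is best known from yeast. Of 8 such genes on the array 7 were detected, 5 with a ratio below 0, with a median of -0.31, and 1 was called. DHX15, whose yeast counterpart takes the spent spliceosome apart, had nearly the same ratio in every heifer. Its signals (EMBV3_15199) were 1177, 1308, 1859 and 1117 at 8 months, against 1562, 1689, 2410 and 1501 at 14 months. The ratios of -0.41, -0.37, -0.37 and -0.43 had an SD of 0.0275, the fitted value was -0.39 ± 0.10, and the gene was not called over all genes (adjusted p 0.0555 by limma). It was called without the filter on dim probes (0.0468) and with median centring (0.00239), and its adjusted p ran up to 0.256 under the other alternatives. DHX16, which acts just before the catalytic steps, was similar. Its signals (EMBV3_42387) were 706, 782, 620 and 714 at 8 months, against 837, 1049, 789 and 919 at 14 months. In each heifer the 8-month value was the lower one. Its ratios were -0.25, -0.42, -0.35 and -0.36, with a fitted value of -0.35 ± 0.10, and it was not called either.

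DHX8 releases the spliced mRNA from the spliceosome. Its signals (EMBV3_17444) were 468, 543, 656 and 923 at 8 months, against 889, 1084, 761 and 824 at 14 months. The ratios were -0.93 and -0.998 in heifers 1 and 2, but -0.21 and 0.16 in heifers 3 and 4. The fitted value was -0.49 ± 0.11, or 1.41-fold lower at 8 months. DHX8 was called in the fit of all genes (adjusted p 0.0438 by limma) although the SD over the heifers was 0.563. In the fit of all probes it was not called (adjusted p 0.0585 by limma). The mean was -0.96 for the pair with the 8-month pool in Cy5 and -0.03 for the other pair, so the call rests on one dye orientation. Dye orientation and the heifers that carry it cannot be told apart.

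DHX38, which remodels the spliceosome between its catalytic steps, spread widely (EMBV3_17618). Its ratios were 0.64, -0.46, 0.76 and 0.03, with a fitted value of 0.24 ± 0.19. DDX41 had ratios of -0.68, -0.43, 0.11 and -0.23, with a fitted value of -0.31 ± 0.11, which is also the median of the splicing group. Its signals were close to background, above it in 3 samples at each age. DDX23, which acts at the 5′ splice site, had -0.05 ± 0.10. DDX46, which helps the U2 snRNP settle on the branch point, is described with the other genes that have several probes.

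**Figure D2:**
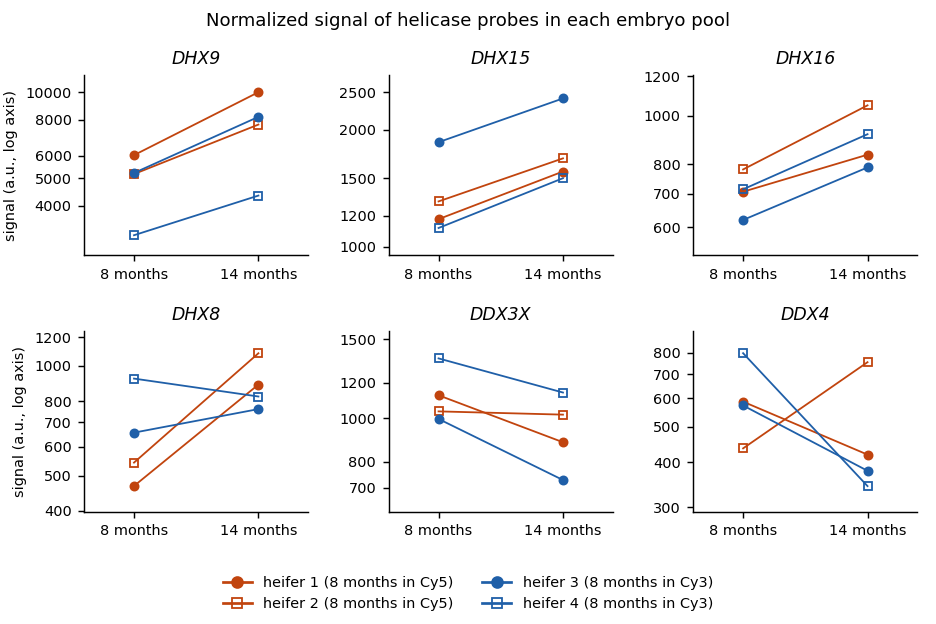
Normalized signal (arbitrary units, log axis) of 6 helicase probes in the 8-month and 14-month pools, a line per heifer, coloured by dye orientation. Signals of DHX9, DHX15 and DHX16 were lower at 8 months in all 4 heifers, DHX8 was clearly lower in heifers 1 and 2, DDX3X was higher at 8 months in all 4, and DDX4 was lower at 8 months in heifer 2 and higher in the others.

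Among the 6 detected helicases of mRNA export and translation 5 had ratios below 0, with a median of -0.05, and 0 were called (limma, 1 at an unadjusted p under 0.05). DDX3X, an X-linked helicase that helps ribosomes start on structured mRNAs, was the only DDX or DHX gene with a ratio above 0 in all 4 heifers. Its signals (EMBV3_43082) were 1126, 1037, 997 and 1361 at 8 months, against 885, 1019, 729 and 1142 at 14 months. The ages overlapped, and heifer 2 was almost level. The ratios were 0.35, 0.02, 0.45 and 0.25, with a fitted value of 0.27 ± 0.11, which was not called. DDX39A, a close relative of the export helicase DDX39B, had signals of 4733, 4642, 4863 and 6004 at 8 months, against 6575, 5546, 6243 and 5395 at 14 months (EMBV3_08794). Heifer 4 alone was higher at 8 months, and the fitted ratio was -0.23 ± 0.12. DDX19A and DDX19B, which release mRNA from its export factors at the nuclear pore, stayed within -0.15 to 0.10 in every heifer. Their fitted ratios were -0.03 ± 0.10 and -0.02 ± 0.10. DDX1, part of the tRNA ligase complex, had -0.07 ± 0.12, and DHX29, which aids scanning of structured mRNA leaders, had -0.11 ± 0.11. Probes may cross-hybridise between such close relatives, which was not tested.

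Ribosome assembly helicases were the largest group, with 14 of 16 genes detected. Of these, 9 had ratios below 0 and 5 above, with a median of -0.09, and 0 were called (limma, 2 at an unadjusted p under 0.05). The lowest was DDX31, a nucleolar helicase. Its signals (EMBV3_11334) were 226, 321, 357 and 304 at 8 months, against 445, 494, 296 and 303 at 14 months. The ratios of -0.97 and -0.62 in heifers 1 and 2 faced 0.27 and 0.00 in heifers 3 and 4, the same division as in DHX8. DDX10 had -0.54, -0.65, 0.20 and -0.32, with heifer 3 alone above 0.

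DDX21, which couples synthesis of ribosomal RNA to its processing, had signals of 204, 243, 210 and 145 at 8 months, against 270, 260, 226 and 164 at 14 months (EMBV3_36506). All 4 ratios were negative, from -0.40 to -0.09, with a fitted value of -0.19 ± 0.10. These signals were close to background. DDX50, its paralogue and its neighbour among the coding genes of the RefSeq assembly ARS-UCD2.0, had 0.15 ± 0.10. DDX55, which acts on the large subunit, had -0.12 ± 0.10 and DDX24 -0.11 ± 0.10, with ratios of -0.26 to -0.01 and -0.23 to -0.02. The highest of the group was DDX47, which acts early in making the small subunit, with ratios of 0.35, 0.35, 0.16 and -0.04 and a fitted value of 0.21 ± 0.10 (EMBV3_18235). The remaining 7 genes of the group had fitted ratios from -0.18 for DDX51 to 0.16 for DDX52.

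Both detected helicases of mRNA storage, decay and G-quadruplexes had ratios below 0 and neither was called. DDX6 holds untranslated mRNA in cytoplasmic granules and works with the decapping machinery. Its signals (EMBV3_20517) were 357, 356, 411 and 340 at 8 months, against 515, 514, 368 and 414 at 14 months. It was lower at 8 months in heifers 1, 2 and 4 and higher in heifer 3, with a fitted ratio of -0.30 ± 0.11. Another detected probe of DDX6 had a fitted ratio of 0.24 ± 0.22. DHX36 unwinds G-quadruplexes, stacked folds of guanine-rich RNA and DNA. Its signals (EMBV3_36862) were 734, 718, 594 and 1182 at 8 months, against 710, 963, 1022 and 1312 at 14 months. Its ratio was near 0 in heifer 1 and lowest in heifer 3, at -0.78, with a fitted value of -0.33 ± 0.14.

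DDX28 and DHX30 act in the assembly of mitochondrial ribosomes. DDX28 had ratios of 0.08, -0.18, -0.17 and 0.15, on both sides of 0 in each dye orientation, with a fitted value of -0.03 ± 0.11. DHX30 had -0.51, -0.25, -0.04 and 0.05, with a fitted value of -0.19 ± 0.10. The size of its ratio is uncertain, since most of its 8-month signals did not clear the background.

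DDX4, the vasa protein, marks germ cells and their stored RNA in many animals. Its signals (EMBV3_11544) were 587, 436, 573 and 799 at 8 months, against 419, 755, 379 and 343 at 14 months. Heifer 2 was lower at 8 months and the other heifers were higher. The ratios of 0.49, -0.79, 0.60 and 1.22 gave the highest fitted value of the family, 0.38 ± 0.20, and the widest SD over heifers of the named helicases, 0.842, and it was not called.

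DHX40, DHX32 and DHX57 are less well characterised. In the probe that stood for each gene all ratios were negative, with -0.45 to -0.14, -0.43 to -0.10 and -0.59 to -0.07. The fitted values were -0.29 ± 0.11, -0.29 ± 0.10 and -0.28 ± 0.10. None of these genes was called (limma, each at an unadjusted p under 0.05). The other 3 detected probes of DHX40 had fitted ratios above 0. DDX59 was split by dye orientation (EMBV3_13466), with -0.24 and -0.37 in heifers 1 and 2 and 0.55 and 0.71 in heifers 3 and 4. Its fitted value of 0.16 ± 0.10 lay between these pairs, and no single heifer was near it.

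**Figure D3:**
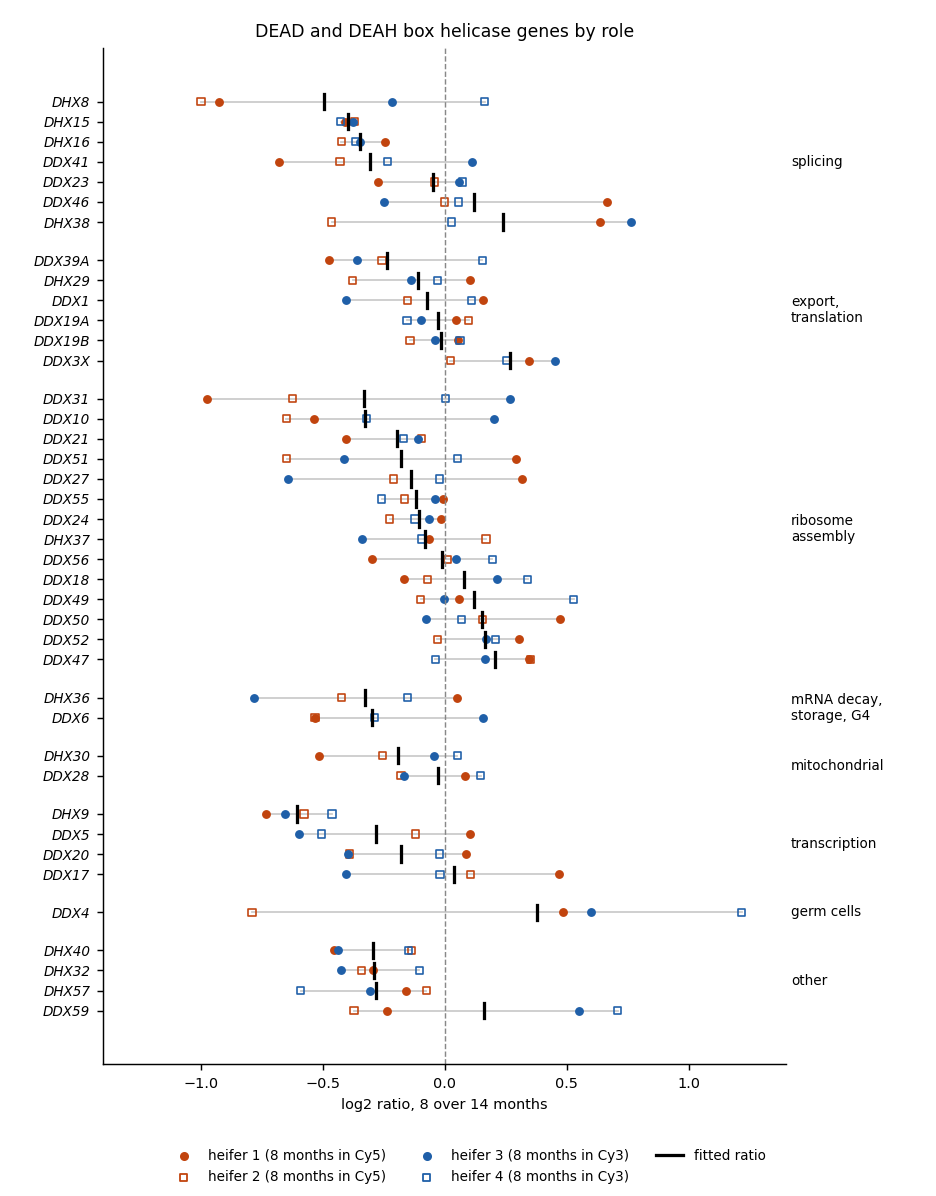
Log2 ratios (8 over 14 months, x axis) of the 40 detected helicase genes in each heifer, grouped by role, with circles and squares for heifers, colour for dye orientation and a black bar for the fitted ratio. DHX15, DHX16 and DHX9 have all 4 heifers close together below 0; DHX8, DDX31 and DDX59 are divided by colour.

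A further division is by dye orientation. The mean ratio of heifers 1 and 2 and that of heifers 3 and 4 were both below 0 for 20 helicase genes, both above 0 for 4 and of opposite sign for 16. Over all 8398 genes these counts were 2427, 2261 and 3710. The shared signs made 60.0% of the 40, where the share over all genes was 55.8%. Of the 12 DHX genes, 9 were below 0 in both orientations. Across the 40 genes, which are not replicates, Pearson's r was 0.448 for heifers 1 and 2 and 0.538 for heifers 3 and 4, each a pair with a common dye orientation. Across orientations it was -0.0838 to 0.302. Over all genes the same values were 0.600, 0.375 and -0.046 to 0.180, so the closer likeness within an orientation was present there too. By heifer, 21, 33, 27 and 21 of the 40 genes had ratios below 0 in heifers 1 to 4, so the low side was widest in heifer 2.

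**Figure D4:**
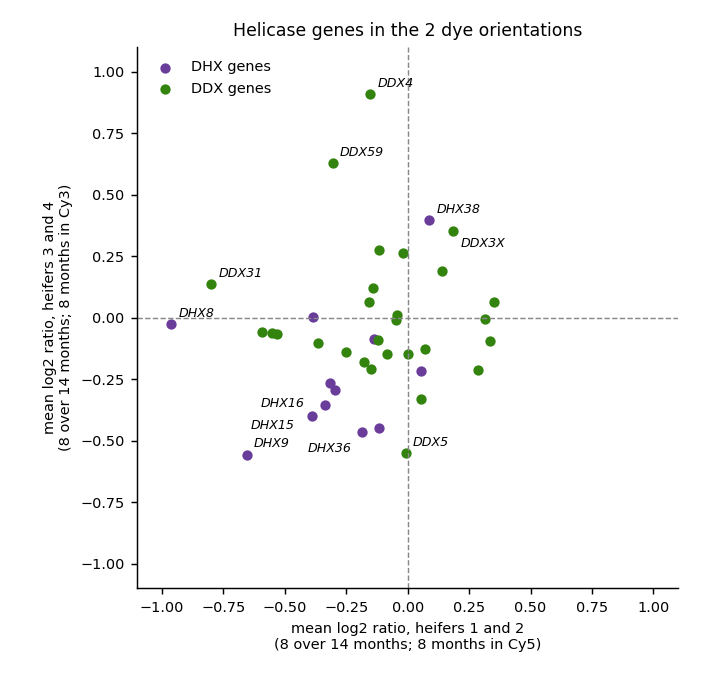
Mean log2 ratio (8 over 14 months) of each helicase gene in heifers 1 and 2 (x axis, 8-month pool in Cy5) against heifers 3 and 4 (y axis, 8-month pool in Cy3), with DHX genes in purple and DDX genes in green. DHX9 lies low on both axes, at -0.65 and -0.56, DHX8 on the x axis alone, at -0.96 and -0.03, and DDX4 is high on the y axis alone, at -0.15 and 0.91.

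Of the helicase genes 6 had more than 1 detected probe, and in 0 of the 6 did all probes have the same sign. DDX46 had 3. The probe with the highest mean intensity (EMBV3_35332) had ratios of 0.67, 0.00, -0.25 and 0.06 and a fitted value of 0.12 ± 0.13. Another (EMBV3_10480) had signals of 399, 590, 433 and 552 at 8 months, against 633, 890, 964 and 818 at 14 months. This probe was lower at 8 months in each heifer. It was lower at 8 months by 0.74 ± 0.12 on the log2 scale, or 1.68-fold, in the comparison of all probes. The remaining one (EMBV3_04532) had -0.17 ± 0.13. The direction of DDX46 thus depended on the probe, and the transcripts that each probe reads were not analysed here.

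DDX5 and DDX6 each had a detected probe of the opposite sign, at 0.15 ± 0.09 (EMBV3_41917) and 0.24 ± 0.22 (EMBV3_08792). In the DDX6 probe, heifer 3 had 1.18 and the others -0.30 to 0.15. DDX59 had another probe at -0.37 ± 0.10 (EMBV3_29183), negative in all heifers. That probe was above background in 2 samples at 8 months and 3 at 14 months. It was thus kept through its 14-month samples alone, which favours a ratio below 0. The other 3 detected probes of DHX40 had fitted ratios of 0.07 to 0.24, opposite in sign to its probe of highest mean intensity. DHX9, DHX15, DHX16 and DHX8 had 1 probe each, so their ratios could not be compared between probes.

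**Figure D5:**
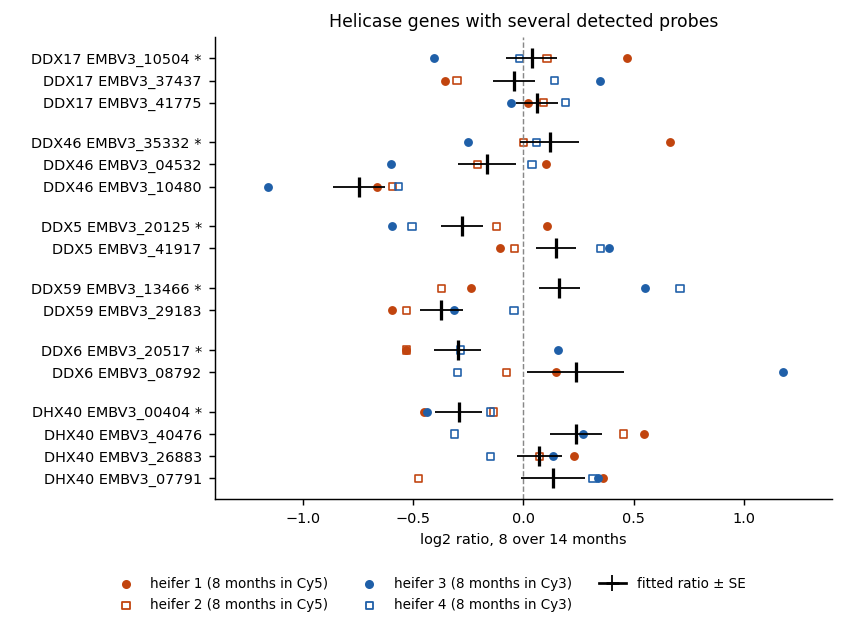
Log2 ratios (8 over 14 months, x axis) of each detected probe of the 6 helicase genes with several probes, with the 4 heifers as points and the fitted value ± SE in black; an asterisk marks the probe with the highest mean intensity. Probe EMBV3_10480 of DDX46 lies far below 0 while the other probes of that gene lie near 0.

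RNA helicases with other names were followed as a list of 19 genes, of which 12 were detected. None passed (limma, 3 at an unadjusted p under 0.05), 10 had ratios below 0 and 2 above, and the median was -0.19. The 2 above, EIF4A2 and DICER1, had ratios above 0 in all 4 heifers, though near 0 in heifer 4. EIF4A1, the helicase of translation initiation, had ratios of -0.37, 0.27, -0.86 and -0.69, with a fitted value of -0.41 ± 0.12. EIF4A3, of the exon junction complex, had -0.21 ± 0.11, with heifer 4 on the other side of 0.

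Of 44 partners and activators of the helicases 36 were detected, 3 passed, all lower at 8 months, where 2.8% of all genes were called lower, and the median of the list was -0.02. PATL1, a decay factor that binds DDX6, was lower at 8 months by 0.72 ± 0.10 on the log2 scale. Its ratios of -0.77, -0.96, -0.58 and -0.59 were alike in all heifers, where DDX6 itself was not. GEMIN4, which binds DDX20 in the SMN complex, was lower at 8 months by 0.54 ± 0.11, with ratios of -0.62, -0.79, -0.56 and -0.17. UTP14A, which activates DHX37 in small subunit assembly, was lower at 8 months by 0.63 ± 0.10. Its ratios were -1.15 and -1.30 in heifers 1 and 2 and -0.19 and 0.10 in heifers 3 and 4. The difference in UTP14A was thus found in 1 dye orientation, while DHX37 had a fitted ratio of -0.08 ± 0.10.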

How the data were processed

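The deposited scanner files gave linear, unnormalized spot intensities of 4 arrays with Cy5 and Cy3 channels, per the file headers. The authors also deposited normalized log2 ratios, whose background correction and normalization are not given in the sources used here. Set against the scanner ratios, one table read Cy5 over Cy3 and the other 8 over 14 months on all arrays (r = 0.815 to 0.980 over 11156 bright probes, slopes of 0.749 to 1.01, from which log base 2 was taken). The column medians were 0.0036, 0.00028, 0.0014 and -0.0094 in the first and 0.0036, 0.00028, -0.0014 and 0.0094 in the second. They served as an alternative.

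Median foreground and background were corrected with normexp (offset 50) and normalized by loess within arrays, with control spots at weight 0 (limma 3.58.1, R 4.3.3). Control and unnamed spots (1426) and each array's 14 summary lines did not enter the tests. A spot was above background where it exceeded the mean of 153 negative controls by 2 SD. The age effect (8 over 14 months) and a dye term were fitted with lmFit and eBayes on all probes, and again on all genes, with Benjamini-Hochberg adjustment over each (2 residual degrees of freedom). This two-sided test leaves out the difference between dye orientations. The fit was run on simulated data, with changes larger than any fitted helicase ratio and a dye effect common to all arrays. The simulation held no difference between dye orientations, so it does not bear on genes divided that way. Signals per sample are channel intensities after loess and Aquantile scaling. The number of arrays limits the precision. All 4 arrays lay on 1 slide by the names of the deposited tables, so slide could not be tested.

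Symbols came from the platform annotation (21790 probes with 1 symbol, 0 with several, 22004 with none) and were updated through RefSeq synonyms (20025 current, 1524 replaced, 241 kept). Genes named with values were those called, up to 8 per direction with the same sign in all heifers and the largest ratio, the extremes of each role and 14 fixed members. DDX10, DDX24, DDX41, DDX50 and others outside this rule were named after their values were seen. Members, roles and lists were chosen with earlier results of these data known. Alternatives covered background, normalization, pixel summary, dye term, moderation, probe filters, probe choice, the authors' ratios and leaving out each heifer.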

Additional observations from a re-analysis of the deposited data

How the results depend on the processing

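Of 346 values of named helicases under 14 alternatives, 333 kept their sign. DHX9 and DHX8 stayed below 0 under all 14. Several alternatives could not change a sign. Leaving out the dye term or moderation, or changing the probe filter, left the fitted ratios of the named genes as they were. For genes with 1 detected probe, such as DHX9 and DHX8, so did the mean over a gene's probes. The count of called helicase genes (2, all lower) was 14, all lower, when arrays were centred on their medians without loess. That put the all-gene median at -0.18 and the helicase median at -0.335 (24.7% of all genes called). It was 1 with the mean over a gene's probes, where DHX9 was the one kept. It was 0 with mean pixel intensities, without the dye term and without moderation (14, 6 and 5 at an unadjusted p under 0.05, limma), and 0 to 2 when 1 heifer was left out. It was 3 without the filter on dim probes, where DHX15 was added. The authors' ratios, plain or no background subtraction and the requirement of signal in all 8 samples gave 2. The count of called probes (2) was 14 with median centring, 4 without a filter on dim probes, 0 with plain or no background subtraction, mean pixel intensities, no dye term or no moderation, and 0 to 4 when 1 heifer was left out. Over all probes the counts were 3416 with median centring, 1013 without the filter, 0 under each of the 5 settings that gave 0 helicase probes, and 1180 without heifer 4. A fit without moderation or with fewer arrays has fewer degrees of freedom. Without heifer 4, DHX9 and DHX8 stayed called, with 4.04% of all genes called. Why calls were lost or kept under any setting was not tested.

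Values that changed sign were all uncalled. Under median centring these were DDX17 (-0.32), DDX46 (-0.125) and DDX47 (-0.0566). With mean pixel intensities DDX59 had -0.0333. With the mean over a gene's probes DDX46 had -0.264, DDX59 -0.104 and DHX40 0.0381. In that setting DDX6 and DDX5 kept their sign but came near 0, at -0.0303 and -0.0651. When 1 heifer was left out, DDX17 ranged from -0.0588 to 0.134, DDX46 from -0.0481 to 0.286, DHX38 from -0.0336 to 0.516 and DDX28 from -0.107 to 0.0504. The fit is already paired, since each array sets a heifer's 8-month pool against her own 14-month pool, and no further replicate block could be added. Signals near background, as in DHX30, DDX21, DDX41 and DHX57, limit the size of their ratios.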
